A study of Mus musculus with 14 samples.

Results

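The Klra genes encode the Ly49 receptors, a family of C-type lectin-like proteins on the surface of mouse natural killer (NK) cells. The members described here are the probes of the array whose gene name begins with Klra. There were 24 such probes with 19 names, out of 41174 gene probes with 27962 names. The family was chosen by measured values, because some of its probes were brighter in cloned than in IVF-derived embryos, so the clone and IVF levels are given below as a description, with no p-value, and nothing is drawn from them as a test. Klra22, Klra7 and Klra16 were the members named for that contrast.

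Expression was measured on 14 one-colour Agilent whole mouse genome arrays of E4.0 blastocysts, each hybridized with Cy3-labelled RNA of 1 sample after 2 rounds of linear amplification. There were 4 female clones made by cell fusion from cumulus cells (fusion clones), 4 female clones made by injection of cumulus cell nuclei (injection clones), 3 male IVF-derived embryos and 3 female IVF-derived embryos, all cultured in KSOM medium. Cumulus cells are follicle cells carried along with the oocyte at ovulation. In the study's methods the recipient oocytes and the IVF controls are of the BDF1 hybrid strain, a cross of C57BL/6N and DBA/2, and the donor cells come from heterozygous Xist knockout mice on the same background. The labels of these blastocysts do not give the Xist genotype, and whether each sample is a single blastocyst is not clear from them. Nothing in the labels says that the replicates were separate cultures, so p-values measure the spread between these samples only.

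Ly49 receptors bind MHC class I molecules on other cells. Inhibitory members carry a cytoplasmic motif that recruits the phosphatase SHP-1, and activating members signal through the adaptor DAP12. The genes lie side by side on chromosome 6 in the NK gene complex, their coding sequences are closely alike, and inbred strains differ in how many they carry. They are best known from NK cells and a few other leukocytes.

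Because the members are alike, a probe may read more than one of them. Of the 24 probes, 11 listed more than 1 RefSeq transcript in the annotation of the array, and 20 pairs of probes shared a listed transcript. The Klra22 probe (Ly49V, inhibitory) also listed the transcript of Klra4 (Ly49D, activating), and so did the probes named Klra12 and Klra18. The transcript of Klra7 (Ly49G, inhibitory) was listed by the Klra7 probe and the Klra23 probe, and that of Klra16 (Ly49P, activating) by 2 probes named Klra16, of which one also listed Klra1 (Ly49A, inhibitory). No probe was named Klra1 or Klra4. By their accessions, 15 of the 24 probes matched a symbol in the RefSeq gene table of GRCm38.p6. Of the 19 names, 9 matched none of its current genes, among them Klra12, Klra15, Klra20 and Klra22. The 14 Klra genes that the table orders on chromosome 6 include none of these and no Klra16. Whether the embryos carry genes of these names was not tested. A level below is therefore that of a probe, under the name the array gives it.

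The probe sequences were not analysed here. To set members side by side, the 250 bases upstream of the annotated start are printed for 3 members from RefSeq GRCm38.p6, all on the minus strand and written 5′ to 3′ along the gene. Klra7 was bright in the clones, Klra6 was dark on every array, and Klra4 was listed by the bright Klra22 probe. Klra7 has 2 annotated starts, and the window shown was chosen after the sequences were seen. The capitals mark CTTTGAT, the core letters bound by TCF/LEF factors, and GAGGAGG, a run also chosen after the windows were seen, each searched on both strands without overlap between them.
Klra7, chr6:130233323-130233572: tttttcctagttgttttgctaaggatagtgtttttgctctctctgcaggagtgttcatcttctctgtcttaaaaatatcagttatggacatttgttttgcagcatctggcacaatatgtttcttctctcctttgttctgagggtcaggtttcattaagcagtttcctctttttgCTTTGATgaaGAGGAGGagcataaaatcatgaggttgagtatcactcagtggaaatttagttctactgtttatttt
Klra6, chr6:130026955-130027204: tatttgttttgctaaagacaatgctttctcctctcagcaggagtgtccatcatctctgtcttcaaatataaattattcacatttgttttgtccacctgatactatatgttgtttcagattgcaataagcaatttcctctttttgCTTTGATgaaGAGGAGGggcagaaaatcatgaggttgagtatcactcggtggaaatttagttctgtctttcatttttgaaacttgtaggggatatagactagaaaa
Klra4, chr6:130067272-130067521: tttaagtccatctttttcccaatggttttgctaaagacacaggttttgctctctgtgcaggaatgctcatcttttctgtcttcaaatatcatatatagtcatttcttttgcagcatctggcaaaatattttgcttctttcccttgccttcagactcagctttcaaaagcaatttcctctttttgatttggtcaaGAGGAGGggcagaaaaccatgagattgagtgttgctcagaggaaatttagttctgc
The longest run shared with the Klra7 window was 30 bases in Klra6 and 17 in Klra4. CTTTGAT was present in 2 of the 13 Klra windows, those printed for Klra7 and Klra6, and in 3.21% of all 32851 windows of this length. The window of the other Klra7 start did not hold it. GAGGAGG was present in 8 of the 13 Klra windows and in 13.6% of all windows. A bright and a dark member thus held both runs, and the match of letters is a description of the windows only.

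Each array had 57.4% to 65.2% of its gene spots well above background, the scanner software's mark for a spot brighter than its surroundings, and fusion clone 4 had the lowest share. Each group of samples was on a slide of its own. The clone arrays came from one scanner and a later version of the Feature Extraction software, without negative processed intensities. The IVF arrays came from another scanner and an earlier version, and 6788 to 9962 gene spots per array were below 0. Slide, scanner, software and the clone or IVF origin of the samples cannot be told apart. The labelled tissue had its defining markers, with 11 of 11 epiblast genes measured and 14 of 15 trophectoderm genes well above background on every array.

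Most of the family was dark in these embryos. Of the 24 probes, 8 were well above background on no array, 8 on 1 or 2 arrays, 1 on 3 to 6 arrays and 7 on 7 or more. The dark probes named Klra2 (both probes), Klra6, Klra8, Klra18 and Klra21, the second Klra16 probe and 1 of the 3 Klra3 probes stayed at the floor of 4 on the log2 scale on every array. Of the 8 probes seen on 1 or 2 arrays, Klra19 was seen on male IVF array 2 alone, at 7.61, and Klra23 on 2 injection clone arrays, with 6.05 on one of them. The map of all 24 probes shows as a block the 5 probes seen on every clone array.

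**Figure D1:**
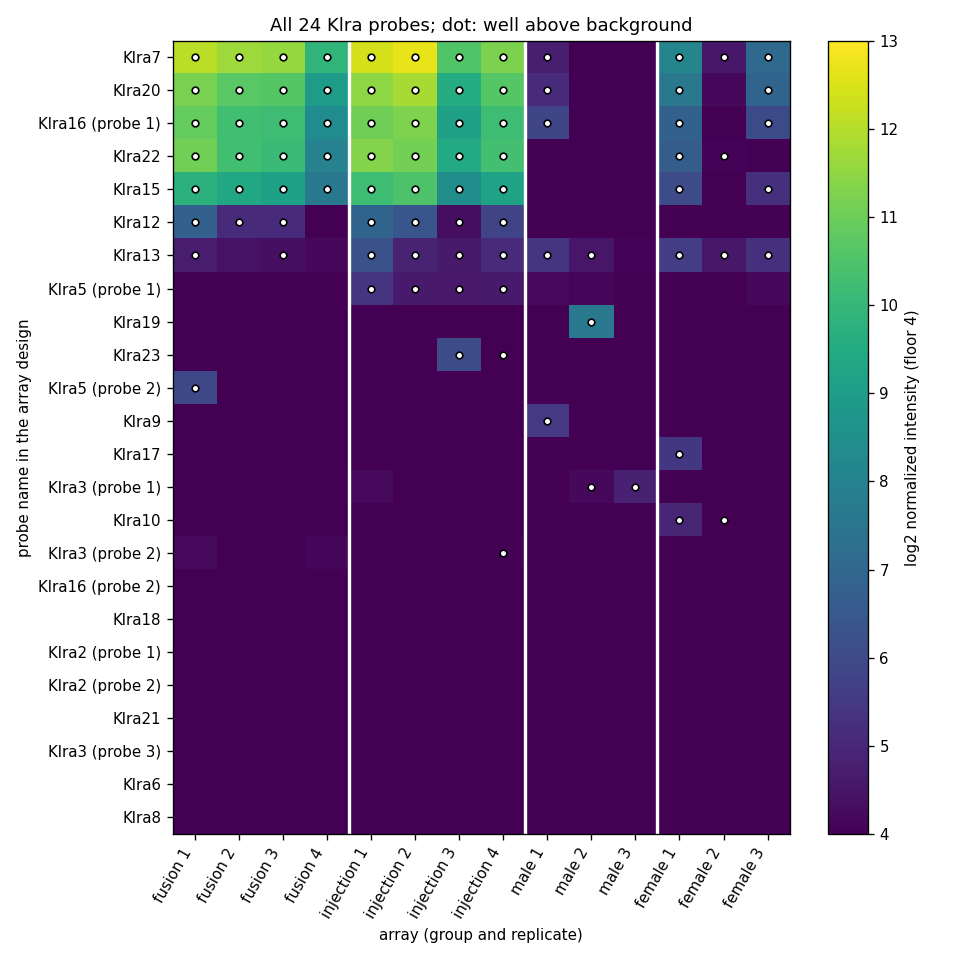
Log2 normalized intensity (colour, floor 4) of the 24 Klra probes in rows on the 14 arrays in columns, with a dot where the probe was well above background. Klra7, Klra20, Klra16 (probe 1), Klra22 and Klra15 carry dots on all 8 clone arrays, and 8 probes carry none.

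Klra7, the receptor known as Ly49G, was well above background on all clone arrays and all female IVF arrays. The level is the log2 of the processed intensity after quantile normalization, with values under 16 set to 16. The Klra7 probe read 12.06, 11.67, 11.59 and 9.88 in fusion clones 1 to 4, and 12.44, 12.72, 10.56 and 11.23 in injection clones 1 to 4. It read 4.76, 4 and 4 in the male IVF embryos and 8.10, 4.6 and 7.06 in the female ones. Every clone lay above every IVF embryo, with 1.79 between the lowest clone and the highest IVF array, and the female embryos were themselves uneven. The fusion clones had a mean of 11.30 ± 0.97 (SD, n = 4) and the injection clones one of 11.74 ± 1.01 (SD, n = 4), against 6.58 ± 1.80 (SD, n = 3) in female IVF embryos. This put fusion clones 26.3-fold and injection clones 35.6-fold above the female embryos. The raw median spot was 1029 to 7480 in the clones against 66 to 330 in the IVF embryos, so the difference was present before any normalization. The files place this probe at chr6:130245389-130245542 on the minus strand. The positions come from the IVF files, whose headers name no build, while the clone files name mm9 but hold no positions.

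The name Klra22, that of the receptor Ly49V, had the largest fold of the family. Its probe read 11.08, 10.28, 10.14 and 7.99 in fusion clones 1 to 4 and 11.33, 11.11, 9.5 and 10.32 in injection clones 1 to 4. In the male IVF embryos it was at the floor on all 3 arrays, and in the female ones it read 6.64, 4.09 and 4. The clones again lay above all IVF embryos, with a gap of 1.35, and fusion clone 4 was the lowest clone. The fusion clone mean of 9.87 ± 1.32 (SD, n = 4) was 31.2-fold above the 4.91 ± 1.5 (SD, n = 3) of female embryos. The injection clone mean of 10.57 ± 0.83 (SD, n = 4) was 50.5-fold above it. As 1 of the 3 female arrays was not well above background, the fold depends on how low signals are treated. On the log2 scale the difference was 4.96 in fusion and 5.66 in injection clones, and with the normexp background correction it was 3.11 and 3.78. The files give this probe no position.

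The name Klra16, that of the activating receptor Ly49P, was carried by 2 probes that went apart. The bright probe, at chr6:130437310-130437369, read 10.86, 10.27, 10.21 and 8.39 in fusion clones 1 to 4 and 11.06, 11.27, 9.15 and 10.22 in injection clones 1 to 4. It read 5.88, 4 and 4 in the male and 6.80, 4.03 and 6.04 in the female IVF embryos. The clones lay above the IVF embryos by at least 1.59. The second probe, placed nearby at chr6:130437536-130437595, was not well above background on any of the 14 arrays. Both probes list the Klra16 transcript, so the 2 readings of that name do not go together, and only the bright one differs between clones and IVF embryos. By the bright probe fusion clones were 19.9-fold and injection clones 28.0-fold above the female embryos.

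The probes named Klra20 and Klra15 (for Ly49T and Ly49O) had the same pattern. The Klra20 probe, at chr6:130070534-130070583, read 11.19, 10.70, 10.63 and 8.96 in fusion clones 1 to 4 and 11.47, 11.82, 9.58 and 10.63 in injection clones 1 to 4. It read 5.06, 4 and 4 in the male and 7.62, 4.18 and 6.90 in the female IVF embryos. Its clone levels were 17.6-fold (fusion) and 24.9-fold (injection) above those of female embryos. The Klra15 probe, at chr6:130339680-130339738, read 9.79, 9.36, 9.17 and 7.64 in fusion clones 1 to 4 and 10.22, 10.48, 8.43 and 9.19 in injection clones 1 to 4. It was at the floor in the male embryos and read 6.10, 4 and 5.25 in the female ones, which put fusion clones 14.7-fold and injection clones 22-fold higher. For both probes no clone array overlapped the IVF arrays.

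Klra12 and Klra13 completed the probes seen on at least 7 arrays. The Klra12 probe (Ly49L, activating), which shares listed transcripts with the Klra22 and Klra15 probes, was dim. It read 6.78, 5.12, 5.10 and 4 in fusion clones 1 to 4 and 6.91, 6.40, 4.32 and 5.84 in injection clones 1 to 4, and was at the floor in all 6 IVF embryos. The female embryos were not well above background, so that fusion clones were at least 2.38-fold and injection clones at least 3.65-fold higher. These bounds depend on the floor. The log2 differences of 1.25 and 1.87 became 0.50 and 1.04 with a floor of 32, 0.55 and 0.77 with normexp, and 3.85 and 4.51 with a floor of 1. The Klra13 probe, named for a pseudogene, was seen in clones and IVF embryos alike, at 4.18 to 6.22 in clones and 4.09 to 5.62 in IVF embryos. Its lowest clone was 1.44 below its highest IVF array, and detection in IVF embryos did not go with a raised level in clones.

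**Figure D2:**
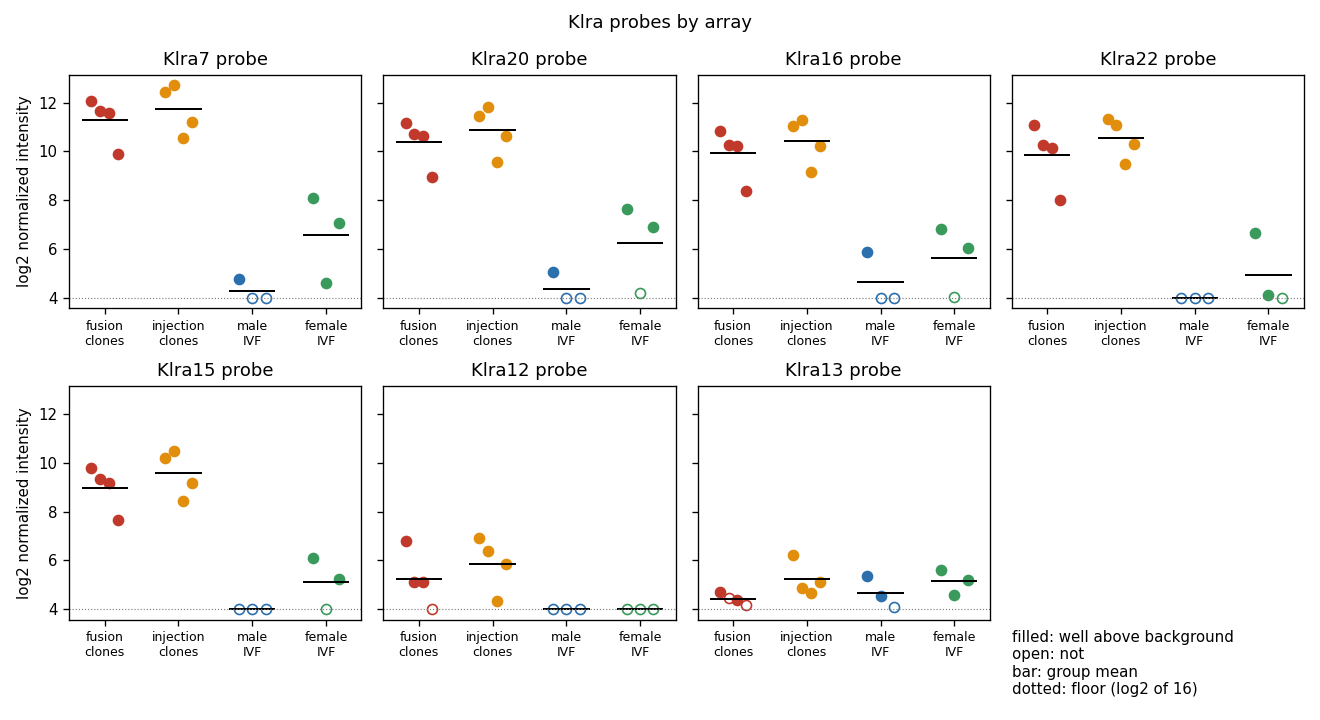
Log2 normalized intensity (vertical axis) of 7 Klra probes, 1 panel each, on the arrays of the 4 groups, filled where well above background, with bars for group means and a dotted line at the floor of 4. In the panels of Klra7, Klra20, Klra16, Klra22 and Klra15 all 8 clone arrays sit above all 6 IVF arrays, and in that of Klra13 the groups overlap.

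The choice of the family on this contrast largely fixed how many of its probes passed a threshold there, so the following counts describe the members and are no evidence about them. In the fit over all probes, 5 of the 10 Klra probes entered were higher in fusion clones than in female embryos at the call threshold (limma, Benjamini-Hochberg adjusted p below 0.05), as were 4.32% of all 32458 probes. In injection clones 4 of 12 were, and 1.53% of 32840. Groups did not overlap for 5 probes in fusion clones (10.1% of all probes) and for 7 in injection clones (8.17%). The 7 were the bright 5, Klra12 and the first Klra5 probe. Both comparisons use the same female embryos. The median difference of the 24 probes was 0 in either comparison, as it was over all gene probes. A probe at the floor in both groups gives exactly 0, so these medians depend on the floor. With a floor of 1 the median over all gene probes was -0.12 in fusion and -0.08 in injection clones.

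The number past the threshold rested on single arrays. In fusion clones the count was 0 without fusion clone 1, 2 or 3 or without female embryo 3, 2 without female embryo 2, and 4 without fusion clone 4 or female embryo 1. In injection clones it was 0 without injection clone 1, 2 or 3 or without female embryo 2 or 3, 1 without injection clone 4 and 2 without female embryo 1. Over the 5 bright probes, the log2 difference from female embryos was between 2.44 and 5.83 for fusion clones and between 2.97 and 6.52 for injection clones over the other processing settings and the arrays left out, a direction that the choice of the family fixed.

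Fusion against injection clones asks whether the way the nucleus is transferred alters expression, and this comparison did not choose the family. Each kind of clone was on its own slide, so slide and way of transfer cannot be told apart. Of the 11 Klra probes tested, 0 were called by limma, and 0% of all 32303 probes were called. At an unadjusted p below 0.05 there was 1 Klra probe, beside 6.17% of all probes. The means of the 5 bright probes differed by -0.43 to -0.70 (fusion minus injection), within the spread of the arrays. Klra7 differed by -0.43 on the log2 scale (SE 0.65, 95% interval -1.97 to 1.1, limma adjusted p = 0.870). Klra22 differed by -0.70 (SE 0.72, interval -2.40 to 1.01, adjusted p = 0.814), and Klra16 by -0.49 (SE 0.67, interval -2.07 to 1.08, adjusted p = 0.855). The intervals are wide, so differences of these sizes were not detectable with 4 arrays a group. Without fusion clone 4, the lowest clone, the differences of Klra7 and Klra16 were 0.04 and 0.02.

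The probe with the smallest p was the first Klra5 probe (Ly49E, a receptor known from fetal NK cells). It read 5.40, 4.66, 4.6 and 4.64 in injection clones 1 to 4 and was at the floor in all 4 fusion clones, and the groups did not overlap, as for 1.8% of all probes in that direction. Injection clones were at least 1.77-fold higher, with an unadjusted p of 0.00334 and an adjusted p of 0.540 in limma, so that it did not pass the correction. The values lay close to the floor. The second Klra5 probe was well above background on fusion clone 1 only, at 5.94.

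**Figure D3:**
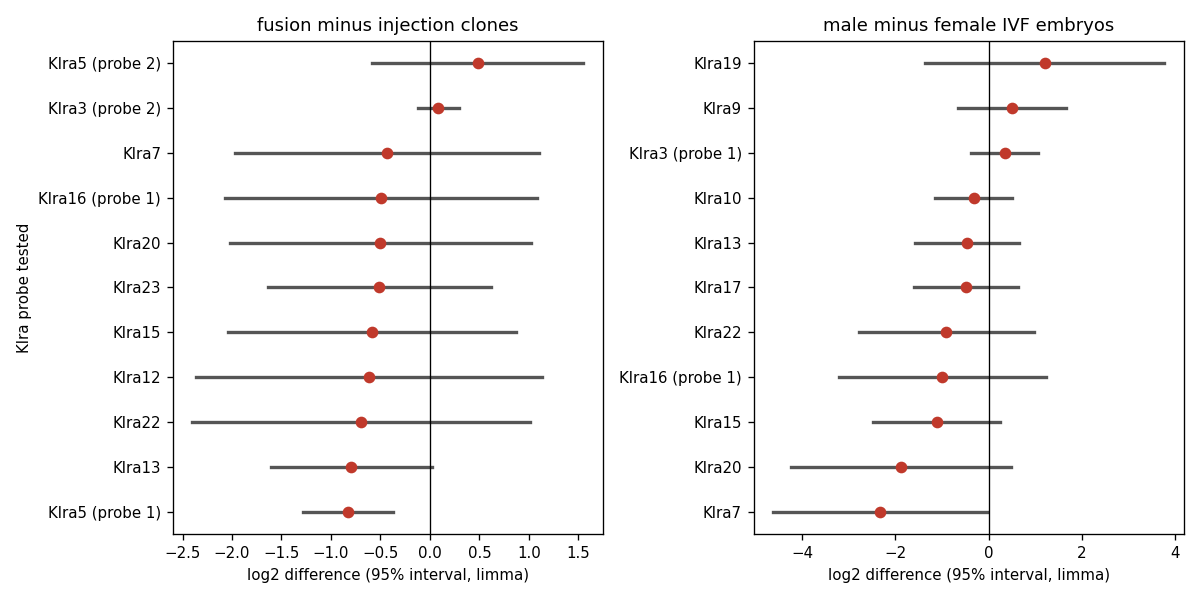
Log2 differences (points) with 95% intervals from limma (bars) of the Klra probes tested, for fusion minus injection clones (left) and male minus female IVF embryos (right). Of the 11 probes in each panel, 1 interval excludes 0 on the left (Klra5, probe 1) and 1 on the right (Klra7).

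Among the IVF embryos the bright probes were not uniformly dark. Female embryos 1 and 3 were above the floor on the Klra7, Klra20, Klra16 and Klra15 probes, whereas female embryo 2 was near it, and male embryo 1 was above it on Klra7, Klra20 and Klra16. Of 11 probes tested in male against female embryos 0 were called by limma, beside 0.0593% of all 32046 probes. At an unadjusted p below 0.05 there was 1 Klra probe, beside 7.76% of all probes, and also 1, beside 5.79%, when at least 2-fold was asked as well. Klra7 had the smallest p, at -2.33 (SE 0.92, 95% interval -4.62 to -0.04, unadjusted p = 0.0470, limma adjusted p = 0.640), and Klra20 was at -1.88 (SE 0.95, adjusted p = 0.657). Male embryos were not well above background on Klra22 and Klra15, where the female ones were at least 1.88-fold and 2.17-fold higher, with limma adjusted p of 0.724 and 0.654. This comparison shares the female arrays with the contrast that singled out the family. Male and female embryos were on different slides, so sex and slide cannot be told apart. The order of the group means was injection clones, fusion clones, female and male IVF embryos for each of the 5 bright probes. In that order, the 2 clone groups and the 2 IVF groups did not differ at the adjusted threshold on any of the 5, although the unadjusted interval of Klra7 between male and female embryos excluded 0.

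The clones varied, and the bright probes varied together. The SD of the Klra7 level over the 8 clone arrays was 0.95, while the SD of its difference from the other bright probes was 0.11 for Klra15, 0.13 for Klra20, 0.16 for Klra16 and 0.34 for Klra22. Fusion clone 4 was lowest and injection clone 3 second lowest on all 5, and injection clones 1 and 2 were highest on all 5. On average over the 5, fusion clone 4 was 1.85 below the median clone, injection clone 3 was 0.98 below and injection clone 2 was 1.05 above. The same arrays were thus low or high on every bright probe, in both kinds of clone.

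As correlations over the 8 clone arrays, Klra7 was related to Klra15 (r = 0.993, rho = 0.976), Klra20 (r = 0.991, rho = 0.976), Klra16 (r = 0.987, rho = 0.976), Klra22 (r = 0.952, rho = 0.905) and Klra12 (r = 0.887, rho = 0.857). In exact two-sided permutation tests over the 8 arrays, adjusted over these 5 relations, the p of r was 8.27e-05 to 0.00350 and that of rho 0.000661 to 0.0107. Without fusion clone 4 and injection clone 2, the 2 arrays farthest from the median of Klra7, r was 0.853 to 0.980. Within fusion clones r was 0.855 to 0.999 and within injection clones 0.905 to 0.998, over 4 arrays each, which is too few for a test. The 5 partners were the other Klra probes seen on at least 7 arrays, except Klra13, and were taken with their levels known. How many of all probes had a like r over the 8 clone arrays is not given here. The probes share the RNA, the array and in part their listed transcripts, and how far one transcript was read by several probes was not tested.

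**Figure D4:**
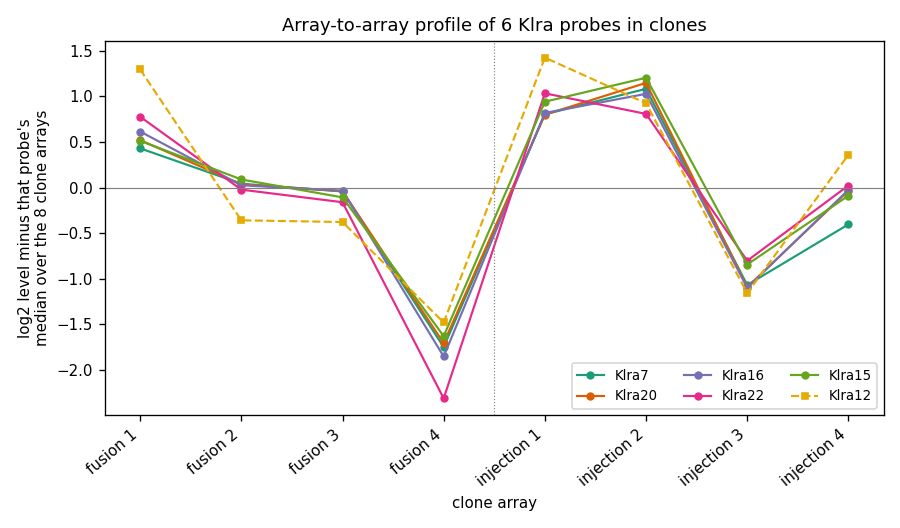
Log2 level of 6 Klra probes (lines) on the 8 clone arrays (horizontal axis), each minus that probe's own median over the 8. The 5 solid lines fall together at fusion clone 4 and injection clone 3 and rise together at injection clones 1 and 2, with Klra12 (dashed) more loosely alongside.

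Other genes with a like pattern were looked for among 17371 gene-named probes well above background on every clone array. Over the 14 arrays the levels most like Klra7 were those of Atg12 (r = 0.966), an autophagy protein, Ehd4 (r = 0.960), an endocytic ATPase, H3f3b (r = 0.958), which encodes a histone H3 variant, Emc2 (r = 0.956), part of the membrane insertion complex of the endoplasmic reticulum, and Ghitm (r = 0.955), a mitochondrial membrane protein. These 14 arrays fall into clones and IVF embryos, and r includes that split. With the mean of each group taken away, the most like were Jcad (r = 0.944), Auts2 (r = 0.929), Atg12 (r = 0.922 and 0.915 on 2 probes) and Hacd3 (r = 0.918). Atg12 was in both sets. By the same measures Klra20 had r = 0.998 and 0.991, Klra15 0.991 and 0.954, Klra16 0.986 and 0.950, Klra22 0.974 and 0.822, and Klra12 0.782 and 0.598. The genes named are the highest of 17371 candidates by r, whereas the Klra probes were taken by name and level. The r values of the 2 kinds are therefore not comparable. The 14 arrays also include IVF arrays at or near the floor. Over the 8 clone arrays, with group means removed, r with Klra7 was 0.953 for Klra22 and 0.880 for Klra12.

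Genes near the family on chromosome 6 were measured too. In the RefSeq table, 35 genes within 1 Mb of the outermost Klra genes had a probe, and 14 of them were on no array. Of 18 tested against female embryos, 2 were higher and 1 was lower in fusion clones, and 1 was higher and 1 lower in injection clones, where 9.49% (fusion) and 3.67% (injection) of all probes were called either way. The 2 that were higher in fusion clones were Clec2i and Clec2g, described below. Gabarapl1, an autophagy protein, differed by 1.45 in fusion clones (SE 0.40, limma adjusted p = 0.0705) and 2.33 in injection clones (SE 0.46, adjusted p = 0.0524) on the log2 scale, short of the threshold in either. Magohb, a protein of the exon junction complex, was 0.76 higher in injection clones (SE 0.14, adjusted p = 0.0471) and differed by 0.05 in fusion clones (SE 0.16, adjusted p = 0.86). Ybx3, a cold-shock domain protein, differed by 0.27 (SE 0.18, adjusted p = 0.38) in fusion clones. The files place 4 probes with other names between the outermost Klra probes, of which 2 were dark on all arrays and none was higher on all clones than on all IVF arrays.

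The NK gene complex also holds other lectin-like receptors, such as the Nkg2, Klrb1 and Clec2 families. Of 26 measured, 14 were well above background on no clone array, among them Klrd1, Klrk1, Klrc1 and Klrb1c, receptors of NK cells. Of 12 tested, 2 were called higher in fusion clones than in female embryos, and 0 in injection clones by limma, where 2 had an unadjusted p below 0.05. The shares called higher among all probes were 4.32% (fusion) and 1.53% (injection). The 2 called were Clec2i, 3.26 higher on the log2 scale (SE 0.70, limma adjusted p = 0.0391), and Clec2g, 2.11 higher (SE 0.28, adjusted p = 0.0119), both relatives of the ligands of Klrb1 receptors. In injection clones the differences were 2.34 (SE 0.76, adjusted p = 0.14) and 0.996 (SE 0.54, adjusted p = 0.33). Both genes were seen on all 14 arrays, unlike the Klra probes.

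The partners of Ly49 receptors were present in part. Of 12 signalling genes tested, 1 was called higher in fusion clones and 0 in injection clones by limma, where 3 had an unadjusted p below 0.05. Over all probes 4.32% and 1.53% were called higher. It was Cbl, a ubiquitin ligase, at 4.32 above female embryos (limma adjusted p = 0.036) and, in injection clones, 3.78 (adjusted p = 0.099), named here after its values were seen. Ptpn6, which encodes SHP-1, was well above background on all 14 arrays, with a difference of 0.52 (SE 0.36, adjusted p = 0.42) in fusion and 0.48 (SE 0.40, adjusted p = 0.50) in injection clones. Tyrobp, which encodes the adaptor DAP12, was on no clone array. Among MHC class I genes and those of antigen loading, 1 of 25 tested was called lower in fusion clones (H2-Q1) and 1 higher in injection clones (H2-T10), both named after their values were seen. Of all probes, 5.17% were called lower in fusion clones and 1.53% higher in injection clones. The ligand gene H2-K1 differed by -0.50 (SE 0.18, adjusted p = 0.14) in fusion and -0.48 (SE 0.30, adjusted p = 0.40) in injection clones, and H2-D1 by -0.56 (SE 0.23, adjusted p = 0.17) and -0.54 (SE 0.22, adjusted p = 0.21).

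Markers of cells that carry Ly49 receptors were measured beside them. Of 27 NK and leukocyte genes, 8 were well above background on no clone array, among them the leukocyte antigen gene Ptprc, the NK receptor gene Ncr1 and the granzyme and perforin genes Gzma, Gzmb and Prf1. Eomes, Tbx21 and Cd3e were on all 14 arrays without being called, and Eomes is also known from trophectoderm. Cd68, a lysosomal protein of macrophages and other cells, was the 1 gene of the list called in both comparisons, at 3.49 (SE 0.55, limma adjusted p = 0.018) in fusion and 3.02 (SE 0.55, adjusted p = 0.045) in injection clones. It was the 1 called of 23 tested in fusion and of 22 in injection clones, beside 4.32% and 1.53% of all probes called higher. The summed intensity of the list was 10680 to 16860 in fusion clones, 8551 to 15354 in injection clones, 8431 to 10296 in male and 6888 to 21155 in female IVF embryos, so the groups overlapped. The brightest genes weigh most in such a sum of intensities. By mean log2 level over the 14 arrays these were Eomes (12.80), Cd68 (10.08) and Tbx21 (9.88). The overlap of the sums is therefore no measure of NK cells or leukocytes. For cumulus cell markers, 0 of 14 genes tested were called in fusion and 0 of 15 in injection clones by limma, with 3 at an unadjusted p below 0.05 in either. Among all probes 9.49% (fusion) and 3.67% (injection) were called either way. The intensities of the cumulus markers were summed as well. Their summed intensities were 40089 to 81674 in clones against 28855 to 57365 in IVF embryos. By mean log2 level over the 14 arrays Gja1 (14.87) and Nr5a2 (14.34) were far brighter than the next marker, Amhr2 (9.89). The cumulus sum thus mostly follows Gja1 and Nr5a2 and is no measure of cumulus cells. The summed intensity of the 24 Klra probes was 2541 to 16836 in clones and 397.5 to 1130 in IVF embryos. Each probe at the floor adds 16 to this sum, so the lowest IVF sums are almost all floor. The family was chosen on this contrast, so the sums are a description only.

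Markers of the 3 cell types of the blastocyst were measured beside the family. Of 14 primitive endoderm markers tested, 2 were called lower in fusion clones (5.17% of all probes) and 4 in injection clones (2.14% of all probes), with medians of -2.35 and -3.00 on the log2 scale, against -0.12 and -0.08 over all probes tested. Foxa2, a transcription factor of endoderm, was on no fusion clone array and on all 3 female ones, at least 146-fold lower (limma adjusted p = 8.29e-05), and on 1 of 4 injection clone arrays. Of 15 trophectoderm markers, 1 was called lower in each kind of clone, and not the same one. In fusion clones it was Elf5, at -2.96 (limma adjusted p = 0.016), which was at -3.65 in injection clones (adjusted p = 0.066). In injection clones it was Id2, at -1.12 (limma adjusted p = 0.040), which was at -0.70 in fusion clones (adjusted p = 0.083). Of 11 epiblast markers, 0 were called by limma in fusion clones, where 2 had an unadjusted p below 0.05, and Zfp42 was higher by 0.93 (limma adjusted p = 0.044) in injection clones. In injection clones 1.53% of all probes were called higher. Summed primitive endoderm intensities were 93723 to 241433 in clones and 149529 to 337686 in IVF embryos. The part of these markers in the Klra levels was not tested, and in whole-embryo RNA more cells of a type cannot be told apart from more RNA per cell.

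**Figure D5:**
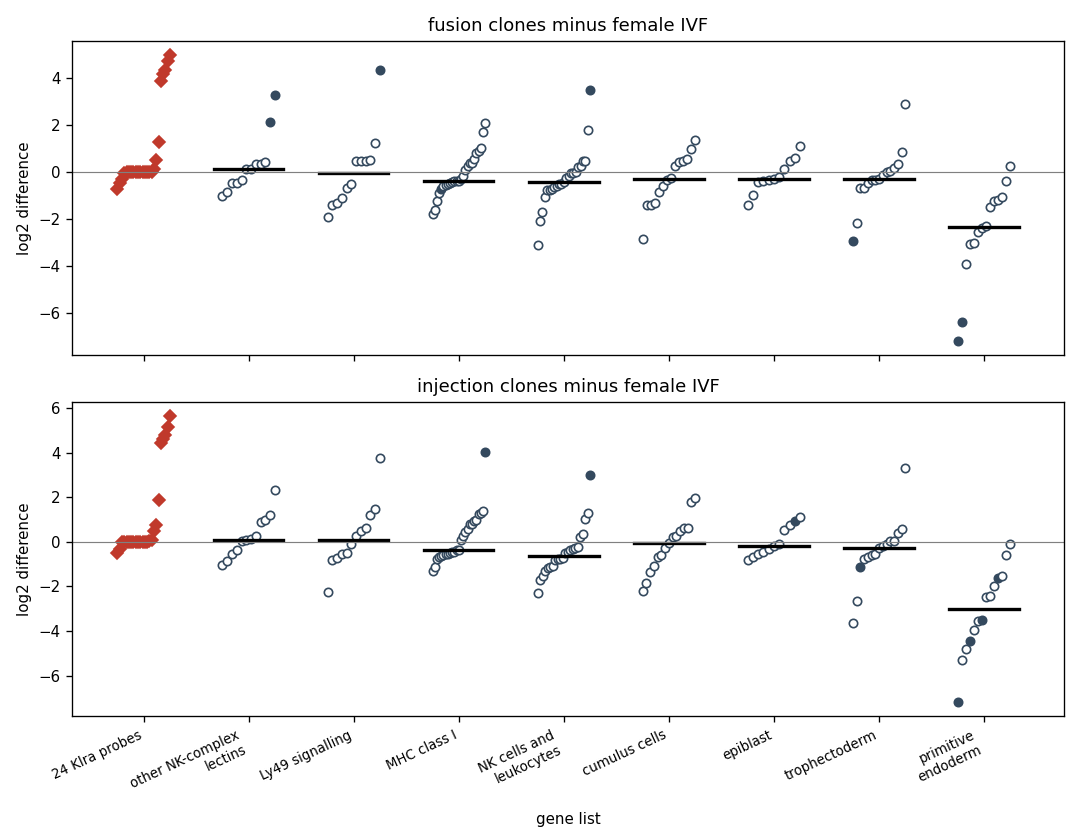
Log2 differences from female IVF embryos (vertical axis) in fusion clones (top) and injection clones (bottom) for the 24 Klra probes (diamonds, a description) and the genes tested in 8 lists (circles, filled where called by limma, with a bar at the median). The 5 bright Klra probes lie between 3.87 and 5.66 across both panels, and the primitive endoderm list is the one with its median furthest below 0.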

How the data were processed

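The arrays were one-colour Agilent arrays of cloned and IVF-derived blastocysts. The authors deposited, for each array, Feature Extraction output with the processed intensity and with median spot and background intensity of each spot, and a table of log2 values that the authors had normalized and centred on each probe (column medians near 0, direction and scale unstated). Only differences between arrays were used from the log2 table deposited. Probe positions were taken from the IVF files, whose headers name no genome build. The clone files name mm9 and hold no positions.

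Control spots were left out, outlier spots (101 to 338 per array) set to missing, spots averaged per probe, intensities quantile-normalized, raised to a floor of 16 and log2-transformed. Probes with a spot well above background in 1 or more of the arrays compared were tested with limma 3.58.1 (R 4.3.3, lmFit and eBayes) and Benjamini-Hochberg adjustment over all of them. Each comparison used its own groups, taken from the labels, and the code was tested on simulated data. The number of arrays limits the precision. Alternatives were the 75th percentile scaling, normexp, the deposited table, other floors and filters, one fit over all groups, the methods' threshold, a replicate block and each array left out.

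The members and the gene lists were chosen with earlier results of these data known. Values per array are given for Klra7, Klra16, Klra22 and any Klra probe seen on at least 7 arrays. The rule for the lists was at most 4 genes by mean intensity, plus those called in both clone comparisons with at least a 4-fold change, and at most 6 chromosome neighbours. Not all of these are printed. Tyrobp, Cbl, H2-Q1, H2-T10, Elf5 and the NK cell genes that were dark in clones fall outside the rule. They were named after their values were seen. Likeness was taken to Klra7, for the 5 highest r by each measure. Columns without a sample numbered 0. Male and female arrays of the same replicate number were weakly alike (r of deviations 0.109 to 0.128, 3 of 3 most like their own number). The labels state no pairing, and what the number stands for was not tested. The main fit did not use the number.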

Additional observations from a re-analysis of the deposited data

Results flagged for a closer look

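In 13 of 91 groups of 4 clone arrays tested, 1 array had a gap to the next that was a large share of the group's range. Chance gives about 1 in 20 for normally distributed values, which groups with arrays at the floor are not. The count of 13 can therefore not be set against that rate. None of the 7 Klra probes seen on at least 7 arrays was among the 13 groups. The first Klra5 probe was higher on injection clone 1 (5.40, the others 4.6 to 4.66, share 0.919). For the other Klra probes the 3 other arrays were all at the floor, which makes the share 1. These were Klra23 on injection clone 3 (6.05), the second Klra5 probe on fusion clone 1 (5.94), 2 Klra3 probes on injection clones 1 (4.22) and 4 (4.05), and Klra19 on fusion clone 4 (4.03). Among the list genes, tested where all 4 arrays were well above background, 7 groups had such an array. Clec2g was higher on fusion clone 3 (10.33, the others 9.5 to 9.64, share 0.840), and Grb2, an adaptor of receptor signalling, on fusion clone 1 (12.16, the others 11.89 to 11.93, share 0.837). H2-D1 was lower on fusion clone 2 (12.51, the highest of the others 13.09, share 0.844), and Eomes on fusion clone 4 (12.16, the others 13.21 to 13.37, share 0.872), which was also the lowest clone for the 5 bright Klra probes. Zfp42 was lower on injection clone 1 (15.93, the others 16.33 to 16.39, share 0.855). The primitive endoderm genes Sparc and Serpinh1 were lower on injection clone 2 (11.49, the others 13.31 to 13.47, share 0.917) and on injection clone 4 (10.12, the others 11.62 to 11.73, share 0.932).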

How the results depend on the processing

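The count of Klra probes called against female embryos moved with the processing, and the direction of the 5 bright probes, fixed by the choice of the family, is no sign of stability. In fusion clones 5 were called, 3 with a floor of 1, 1 with no filter on dim probes, and 0 to 4 with single arrays left out. In injection clones 4 were called, 2 with a floor of 1, 1 with no filter, and 0 to 2 with single arrays left out. Over all probes, 3079 calls in fusion clones became 1349 to 3149, and 1205 in injection clones became 173 to 1366, with single arrays left out. Between fusion and injection clones 0 Klra probes were called under every setting run. With single arrays left out the difference of Klra7, -0.43, was -0.82 to 0.0396 and that of Klra16, -0.49, was -0.92 to 0.0211, both upper ends without fusion clone 4. Between male and female embryos 1 was called (Klra7) at an unadjusted p below 0.05 and at least 2-fold. The deposited table shifted the median of all gene probes by 0.30 (fusion against female), 0.29 (injection against female) and 0.15 (male against female), and a floor of 1 shifted it by -0.12 in fusion clones. The lowest clone stayed above the highest IVF array on the 5 bright probes under the scalings tried, chosen after seeing the data, as were the correlations recomputed under them. The cause of these changes was not tested.

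With the replicate number as a block, 0 Klra probes were called against female embryos in fusion clones and 0 in injection clones, and 0 between fusion and injection clones and between male and female embryos. At an unadjusted p below 0.05 limma with the block gave 6, 5, 2 and 1 in that order. Only replicate numbers found in both groups entered, so fusion clone 4 and injection clone 4 were left out against female embryos. There, the block and the loss of an array cannot be told apart. Fusion and injection clones shared little beyond a number (r of deviations -0.06 to 0.11, 1 of 4 arrays most like its own number). For fusion clones and female embryos r was -0.02 to 0.06, with 2 of 3 most like their own number. For injection clones and female embryos r was -0.063 to -0.006, with 0 of 3.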
